A study of Mus musculus with 6 samples.

Results

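The genes described here encode the lysyl oxidases Lox, Loxl1, Loxl2, Loxl3 and Loxl4, the lysyl hydroxylases Plod1, Plod2 and Plod3, the collagen chaperone Serpinh1 (HSP47) and the procollagen C-proteinase enhancer Pcolce. They were chosen by name, as genes that modify, fold, trim or cross-link collagen, with earlier results of these data known. All 10 were found among the 26532 genes of the table, and all 10 had enough counts to be tested. RNA was sequenced from mouse embryonic fibroblasts (MEFs), cultured cells grown out of mouse embryos, which the labels also call mesenchymal stem cells. The ORAI2 group comprised 3 libraries from cells infected with a recombinant adenovirus carrying ORAI2, a calcium channel subunit, with the genotype label ORAI2 Overexpression. The GFP group comprised 3 libraries from cells infected with an adenovirus carrying green fluorescent protein, with the genotype label WT. Both groups carried the treatment label osteogenic differentiation. The labels name neither the promoter of the viral insert, nor the time of harvest, nor whether BMP9 was added, nor whether the libraries of a group are separate cultures. The p-values therefore reflect library-to-library spread alone, and that spread may be technical.

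Fibrillar collagens are made as procollagen chains in the endoplasmic reticulum. There, prolyl and lysyl hydroxylases modify the chains, and HSP47 binds and stabilises the folded triple helix. After secretion, proteinases remove the end pieces, with the C-proteinase BMP1 assisted by PCOLCE. Copper-dependent lysyl oxidases then oxidise lysine and hydroxylysine side chains, from which the covalent cross-links of collagen and elastin form. Bone matrix is rich in cross-linked type I collagen.

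Levels are given as CPM, counts scaled to a common library total with a correction for library composition. Total counts lay between 18526884 and 18844436 per library. Orai2 itself stood at 3656, 2831 and 2441 CPM in the ORAI2 libraries, against 53.4, 48.9 and 48.7 CPM in the GFP libraries. The mesenchymal markers Nt5e and Eng averaged 108 and 40.7 CPM in ORAI2 libraries and 104 and 50.0 CPM in GFP libraries, whereas Thy1, another marker of such cells, had between 1 and 3 counts per library. Of 12 tested fibroblast and mesenchymal markers, 10 were lower, Eng among them, 1 (Twist2) was higher and 1 (Nt5e) was not called. The falls ran from 1.19-fold for Dcn to 3.37-fold for the scarce Lum, with Ly6a 1.94-fold and Pdgfrb 1.66-fold lower. Twist2 was 1.34-fold higher. Summed fibroblast and mesenchymal markers ranged from 1364 to 1492 CPM in ORAI2 libraries and from 1832 to 1896 CPM in GFP libraries. None of the 13 was at 0. Summed macrophage markers ranged from 26.5 to 36.0 CPM in ORAI2 libraries and from 51.6 to 56.2 CPM in GFP libraries. Most of that sum was Cd14, at 25.5 CPM in ORAI2 libraries and 39.8 CPM in GFP libraries. Cd14 and Mpeg1 were called lower and Cd68 was not called, while Ptprc, Csf1r and Fcgr1 had at most 4 counts in a library. Summed endothelial markers ranged from 16.3 to 17.6 CPM in ORAI2 libraries and from 6.48 to 8.83 CPM in GFP libraries. Of the 6 endothelial markers, Vwf and Kdr were tested and both were higher, 2.76-fold and 2.01-fold (adjusted p = 1.84e-05 and 5.97e-05, edgeR), while Pecam1, Cdh5 and Tek had at most 7 counts in a library and Emcn none. Summed smooth muscle markers ranged from 6.19 to 7.76 CPM in ORAI2 libraries and from 2.89 to 3.69 CPM in GFP libraries. Most of that sum was Tagln, with Acta2, Cnn1 and Myh11 too scarce to test. Summed epithelial markers ranged from 4.33 to 5.28 CPM in ORAI2 libraries and from 3.21 to 3.96 CPM in GFP libraries, with Epcam at 0. Of the 2 tested, Grhl2 was 4.68-fold higher, at 2.36 CPM in ORAI2 libraries and 0.500 CPM in GFP libraries (adjusted p = 1.31e-04, edgeR). Krt18 was not called, and Cdh1, Krt8 and Esrp1 were too scarce to test. Summed neural and glial markers ranged from 163 to 174 CPM in ORAI2 libraries and from 131 to 145 CPM in GFP libraries, most of it Nes. The sums of osteoblast and of adipocyte markers overlapped between the groups. Most of the osteoblast sum was Spp1, no tested osteoblast marker was called, and Sp7 and Bglap were too scarce to test. Most of the adipocyte sum was Fabp4, which was not called, while the scarcer Pparg was 1.92-fold higher (adjusted p = 5.80e-04, edgeR). The part of these differences in the results below was not tested. In bulk RNA, fewer cells of a type and less RNA per cell cannot be told apart.

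Of the 10 genes, 9 were lower in ORAI2 libraries, and Loxl2 did not pass the threshold of an adjusted p under 0.05 (quasi-likelihood F-test of edgeR, Benjamini-Hochberg over 13764 genes). Over all tested genes, 22.1% were called lower, 20.8% higher and 42.9% in either direction. Among the more abundant genes, with at least 5 CPM in 3 libraries, 25.8% were called lower. For the same 9 genes all ORAI2 libraries lay below all GFP libraries, a pattern found in 26.6% of all tested genes, the opposite pattern being found in 26.2%. All 10 log2 fold changes were negative. Their median was -0.35, against -0.002 over all tested genes. The falls were uneven, from 2.42-fold for Lox to 1.12-fold for Plod2.

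**Figure D1:**
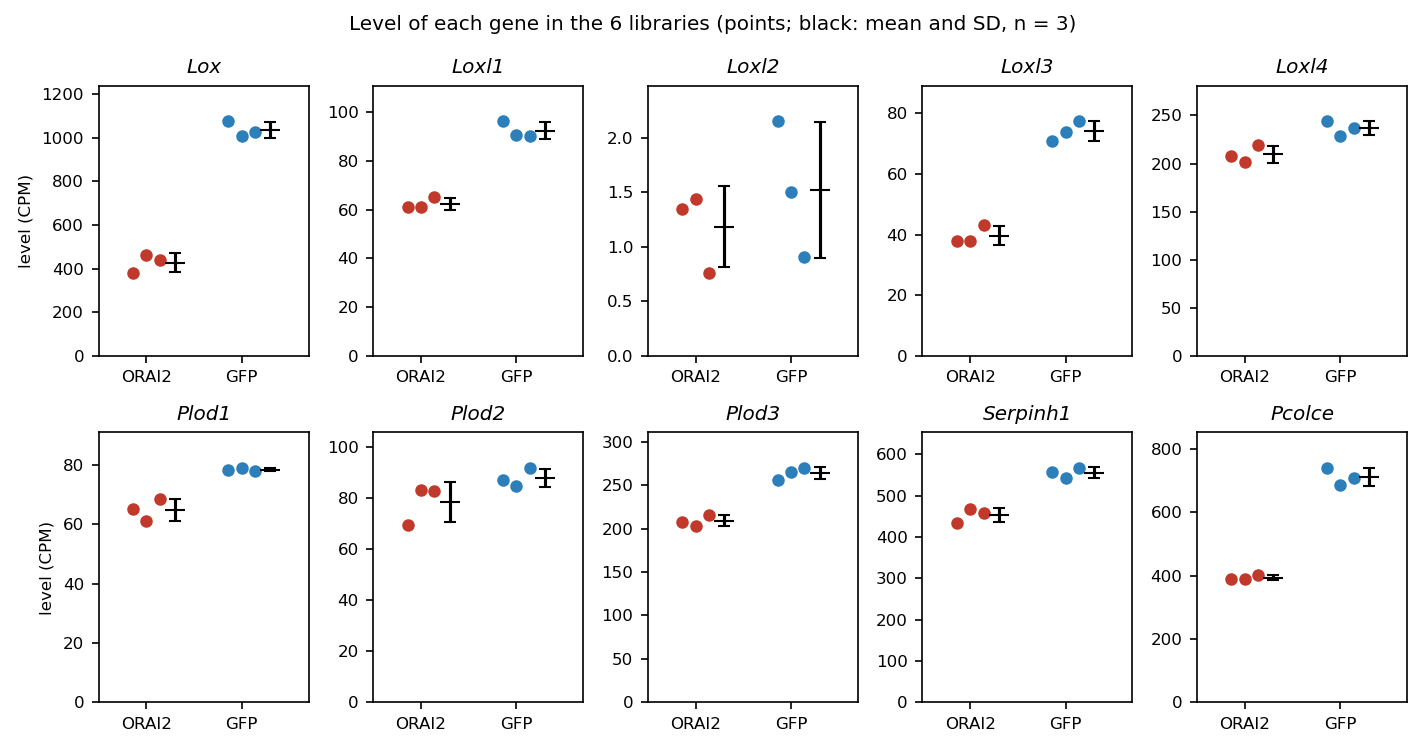
Level of each of the 10 genes in CPM (vertical axes, each starting at 0) in the 3 ORAI2 and 3 GFP libraries. Points are libraries, and black bars give the mean and SD of each group. The groups overlap for Loxl2, and for the other 9 genes every ORAI2 point lies below every GFP point.

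**Figure D2:**
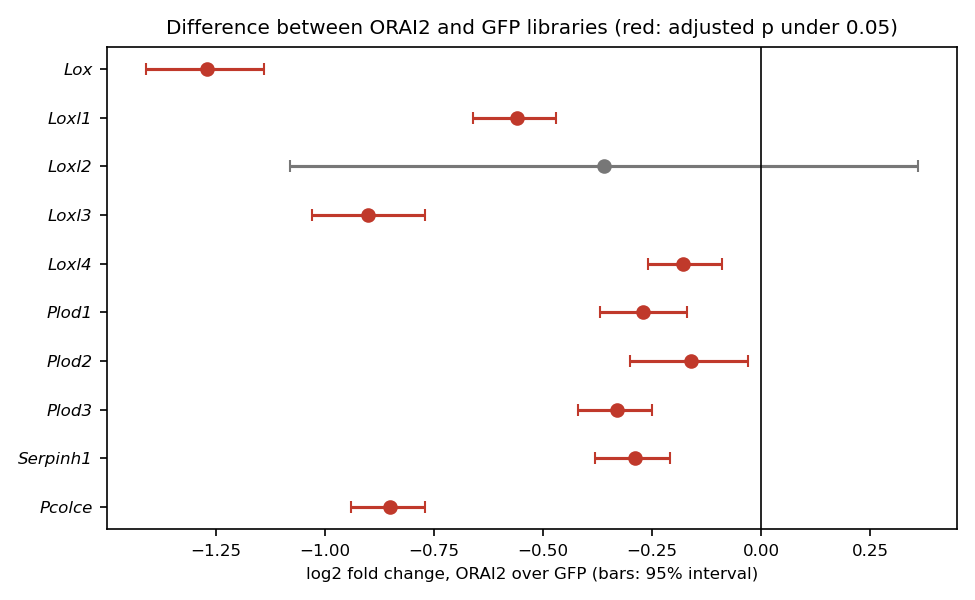
Log2 fold change of each gene, ORAI2 over GFP, with its 95% interval (horizontal axis). Red points passed an adjusted p under 0.05 and the grey point, Loxl2, did not. Lox, Loxl3 and Pcolce lie farthest from 0, and the interval of Plod2 ends close to 0.

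Lox, the founding member of the family and its most abundant transcript in GFP libraries, fell most. It was measured at 379, 464 and 440 CPM in the ORAI2 libraries, against 1075, 1005 and 1025 CPM in the GFP libraries. The highest ORAI2 library thus stood well below the lowest GFP library. The level averaged 428 ± 43.6 CPM in ORAI2 libraries and 1035 ± 36.2 CPM in GFP libraries (SD, n = 3 each), so that 41.3% of the GFP level was left (log2 fold change -1.27, SE 0.06, adjusted p = 1.64e-08, edgeR). By p-value it ranked 40 among 13764 genes.

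Loxl3, a scavenger-receptor type lysyl oxidase, was next among the oxidases. Its level was 37.9, 38.0 and 43.2 CPM in the ORAI2 libraries and 70.8, 74.0 and 77.4 CPM in the GFP libraries. The log2 fold change was -0.90 (SE 0.06, adjusted p = 1.60e-07, edgeR), which left 53.6% of the GFP level. In the GENCODE annotation 535 exon bases of Loxl3, 11.6% of its exonic sequence, are shared with Htra2 on the opposite strand. Htra2, which encodes a mitochondrial protease, had a log2 fold change of -0.27. No source used here says whether counting was stranded, so reads from the shared stretch cannot be assigned.

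Loxl1, which acts on elastin in the mouse, was 1.48-fold lower. It stood at 60.9, 61.2 and 65.2 CPM in ORAI2 libraries and at 96.3, 90.5 and 90.1 CPM in GFP libraries (log2 fold change -0.56, SE 0.04, adjusted p = 9.01e-07, edgeR). Loxl4, also of the scavenger-receptor type, fell by a smaller amount. Its values were 208, 202 and 219 CPM in ORAI2 libraries and 244, 229 and 237 CPM in GFP libraries, without overlap (log2 fold change -0.18, SE 0.04, adjusted p = 0.00364, edgeR). The 95% interval of its log2 fold change, -0.26 to -0.09, did not reach that of Lox, -1.41 to -1.14.

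Loxl2 was scarce, with 25, 27 and 14 counts in the ORAI2 libraries and 40, 28 and 17 counts in the GFP libraries. The groups overlapped, and the 95% interval of the log2 fold change ran from -1.08 to 0.36 (adjusted p = 0.414, edgeR). That interval includes both no change and changes of the size seen for Loxl1 and Loxl3. Loxl2 also shares 301 exon bases with Gm27177, an antisense gene with between 296 and 594 counts that was itself higher in ORAI2 libraries (log2 fold change 0.60, adjusted p = 7.55e-04, edgeR).

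Because Lox fell more than Loxl4, the make-up of the family differed between the groups. Levels of different genes were compared per kilobase, with the median length of the annotated protein-coding transcripts. Lox made up 41.9%, 47.4% and 44.1% of the summed lysyl oxidase level in ORAI2 libraries, against 61.1%, 60.6% and 60.5% in GFP libraries. Loxl4 made up 41.1 ± 2.21% of that sum in ORAI2 libraries and 26.1 ± 0.130% in GFP libraries, and Loxl1 9.09 ± 0.337% in ORAI2 libraries and 7.57 ± 0.121% in GFP libraries. The summed level of the family was 209 ± 10.7 CPM per kilobase in ORAI2 libraries and 370 ± 11.4 in GFP libraries (SD, n = 3 each). With the longest transcript as the length, Lox made up 51.4 ± 2.75% of the sum in ORAI2 libraries and 66.6 ± 0.294% in GFP libraries. Loxl4 made up 32.1 ± 1.99% in ORAI2 libraries and 19.3 ± 0.107% in GFP libraries with that length. These shares are descriptions, since 3 libraries against 3 allow no exact two-sided p below 0.10.

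**Figure D3:**
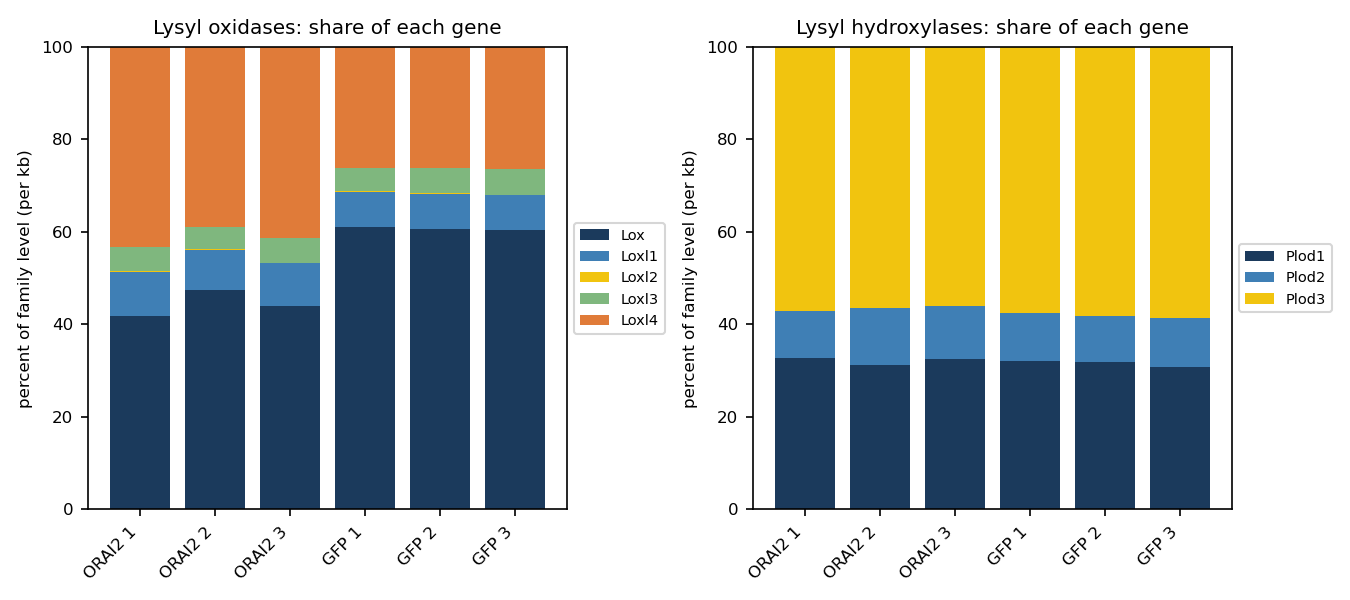
Share of each gene in the summed level per kilobase of the lysyl oxidases (left) and of the lysyl hydroxylases (right), in percent, for each of the 3 ORAI2 and 3 GFP libraries. Among the oxidases Lox takes 41.9% to 47.4% in ORAI2 libraries and 60.5% to 61.1% in GFP libraries, Loxl2 is too thin a band to see, and the hydroxylase shares lie close together in all 6 libraries.

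Of the lysyl hydroxylases, which prepare the hydroxylysine residues used for sugar attachment and for stable cross-links, all 3 were called lower, each by less than Loxl1. Plod3, which in addition carries glycosyltransferase activity, was measured at 208, 203 and 216 CPM in ORAI2 libraries and 256, 265 and 270 CPM in GFP libraries. That left 79.3% of the GFP level (log2 fold change -0.33, SE 0.04, adjusted p = 1.53e-05, edgeR). Its exons share 529 bases, 11.7% of its exonic sequence, with Znhit1 on the opposite strand, which had a log2 fold change of -0.29.

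Plod1, which hydroxylates lysines of the helical part of collagen, stood at 65.3, 61.0 and 68.4 CPM in ORAI2 libraries and at 78.3, 79.1 and 78.0 CPM in GFP libraries (log2 fold change -0.27, SE 0.05, adjusted p = 4.38e-04, edgeR). Plod2, the enzyme of the telopeptide lysines, was at 69.5, 83.1 and 82.5 CPM in ORAI2 libraries and 86.9, 84.8 and 91.8 CPM in GFP libraries. The highest ORAI2 value came within 1 SD of the lowest GFP value. The adjusted p was 0.0485 with a log2 fold change of -0.16, and ORAI2 replicate 1 carried much of the difference. Without that library the log2 fold change was -0.08 and the adjusted p 0.226. Over all 14 alternatives the adjusted p ranged from 0.0191 to 0.226, and 8 of them ended the call, among them leaving out any single GFP library.

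The proportions among the hydroxylases differed by little. Plod3 made up 56.6 ± 0.518% of their summed level per kilobase in ORAI2 libraries and 58.1 ± 0.528% in GFP libraries, and Plod1 32.2 ± 0.867% in ORAI2 libraries and 31.7 ± 0.648% in GFP libraries (SD, n = 3 each). The share of Plod1 overlapped between the groups. That of Plod3 did not, at 57.1%, 56.5% and 56.1% in ORAI2 libraries and 57.5%, 58.2% and 58.5% in GFP libraries. With the longest transcript as the length, Plod1 made up 19.0 ± 0.729% in ORAI2 libraries and 18.8 ± 0.471% in GFP libraries. Plod2 then made up 20.3 ± 1.75% in ORAI2 libraries and 18.6 ± 0.524% in GFP libraries. The order of Plod1 and Plod2 thus depends on the transcript assumed.

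Serpinh1 encodes the chaperone that collagen-producing cells need for triple-helix assembly. It was abundant, at 434, 468 and 459 CPM in ORAI2 libraries and 558, 542 and 568 CPM in GFP libraries. The groups were apart, and 81.6% of the GFP level remained (log2 fold change -0.29, SE 0.04, adjusted p = 6.31e-05, edgeR). No exon of another annotated gene overlapped it.

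Pcolce had the largest fall outside the oxidases, and its ORAI2 values lay close together. Its level was 391, 389 and 402 CPM in the ORAI2 libraries and 741, 686 and 709 CPM in the GFP libraries. The 3 ORAI2 libraries varied by 1.80% of their mean, and 55.3% of the GFP level was left (log2 fold change -0.85, SE 0.04, adjusted p = 1.05e-08, edgeR). Pcolce ranked 25 by p-value among 13764 genes. It shares 112 exon bases with the far scarcer Fbxo24, at 25 to 54 counts per library. Its relative Pcolce2 differed in direction. Pcolce2 was higher at 21.0, 21.1 and 19.7 CPM in ORAI2 libraries, against 13.2, 12.7 and 10.7 CPM in GFP libraries (log2 fold change 0.76, SE 0.09, adjusted p = 1.98e-05, edgeR).

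Upstream sequence from the RefSeq promoter table (build GRCm38.p6) was searched for 5 of the 10 genes, Loxl4, Plod1, Plod3, Serpinh1 and Pcolce. Loxl1, Loxl2, Loxl3 and Plod2 had no entry. Lox, the gene that fell most, was left out of the search, so its upstream sequence is not described. The 250 bases before the annotated start are shown for 3 of them. Pcolce fell most of the 5, Loxl4 fell little, and Serpinh1 is the chaperone gene. Pcolce is from chr5:137611405-137611654, Serpinh1 from chr7:99353240-99353489 and Loxl4 from chr19:42612807-42613056, all on the minus strand and written 5′ to 3′ along the gene. Capitals mark every match, on either strand, to the letters searched. These were TATAAA for the TATA box, CCAAT for the box of that name, GGGCGG for the GC box, ACGTG for the core of the hypoxia response element, GAANNTTC for the heat shock element and TGANTCA for the AP-1 site.
Pcolce: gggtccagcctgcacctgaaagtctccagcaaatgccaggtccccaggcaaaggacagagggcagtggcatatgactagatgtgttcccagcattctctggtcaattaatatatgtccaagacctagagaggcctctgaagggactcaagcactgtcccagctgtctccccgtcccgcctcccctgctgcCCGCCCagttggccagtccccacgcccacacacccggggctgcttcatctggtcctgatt
Serpinh1: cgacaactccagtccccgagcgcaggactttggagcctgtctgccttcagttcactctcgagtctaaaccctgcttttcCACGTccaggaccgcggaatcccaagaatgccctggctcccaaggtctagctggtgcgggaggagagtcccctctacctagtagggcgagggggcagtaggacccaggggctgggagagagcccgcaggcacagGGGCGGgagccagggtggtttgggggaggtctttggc
Loxl4: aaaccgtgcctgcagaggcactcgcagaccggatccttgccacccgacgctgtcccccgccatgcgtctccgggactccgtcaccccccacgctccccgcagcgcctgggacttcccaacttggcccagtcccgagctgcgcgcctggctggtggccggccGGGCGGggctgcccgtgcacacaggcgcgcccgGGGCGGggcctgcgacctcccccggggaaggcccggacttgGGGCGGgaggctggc

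In these windows the only match in Pcolce was 1 GC box on the opposite strand, 60 to 55 bases before the start. Serpinh1 held 1 GC box at 37 to 32 bases and 1 ACGTG on the opposite strand at 171 to 167 bases before the start. Loxl4 held 3 GC boxes, at 89 to 84, 56 to 51 and 15 to 10 bases, in a window of 76.0% G and C. A GC box was found in 4 of the 5 genes, all but Plod3, and in 32.7% of 32851 windows of the same length. ACGTG was found in Serpinh1 and Plod3, and in 16.6% of the windows. A CCAAT box in Plod3 and a TATAAA in Plod1, 232 bases before its start, were the other matches, found in 33.8% and 12.4% of the windows. GAANNTTC and TGANTCA, present in 6.69% and 6.75% of the windows, matched none of the 5. Overlapping matches would each have been counted.

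The substrates of these enzymes were lower as well. Of 8 tested fibrillar collagen genes, 7 were called lower, against 22.1% of all tested genes. Col11a2 did not pass, and the median log2 fold change of the 8 was -0.95. The groups overlapped for Col5a3, the weakest of the 7 calls (adjusted p = 0.0385, edgeR). With DESeq2 or limma-voom 6 were called, and likewise in edgeR without GFP replicate 1 or 2, or without ORAI2 replicate 2 or 3. Col1a1, the main chain of type I collagen, stood at 466, 488 and 503 CPM in ORAI2 libraries, against 1314, 1244 and 1222 CPM in GFP libraries. Col3a1 and Col1a2, of type III and type I collagen, had log2 fold changes of -3.46 and -1.59. Col5a1 and Col5a2, chains of type V collagen that nucleates fibrils, were 1.65-fold and 1.64-fold lower (adjusted p = 4.15e-08 and 5.72e-08, edgeR). Eln, the elastin gene, had at most 1 count in a library and could not be tested.

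The ratio of each enzyme to Col1a1 was then taken within each library. CPM values are not corrected for transcript length, so these ratios can be compared between groups but do not compare levels between genes. For Lox the ratio of CPM values was 0.813, 0.951 and 0.875 in ORAI2 libraries and 0.818, 0.807 and 0.839 in GFP libraries. These values overlapped, with a log2 difference of 0.10. For each of the other 8 abundant genes the ratio was higher in all ORAI2 libraries than in any GFP library. For Serpinh1 the ratio was 0.929, 0.960 and 0.913 in ORAI2 libraries and 0.425, 0.435 and 0.464 in GFP libraries, a 2.12-fold difference. Pcolce was at 0.838, 0.797 and 0.799 in ORAI2 libraries and 0.564, 0.551 and 0.580 in GFP libraries, a 1.44-fold difference. Among these genes the widest differences were those of Plod2 (2.31-fold) and Loxl4 (2.30-fold), and the ratio of Loxl3 differed 1.39-fold. All these ratios share the fall of Col1a1 and are given as descriptions. Col1a1 ranked 138 among 13764 tested genes by size of fall, and any gene that fell less has a higher ratio in ORAI2 libraries. Outside the 10 genes, Fkbp10 (2.39-fold) and Bmp1 (2.36-fold) had wider differences. Col1a2 and Col3a1, which fell more than Col1a1, had lower mean ratios. The share of all genes with separated ratios was not computed.

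**Figure D4:**
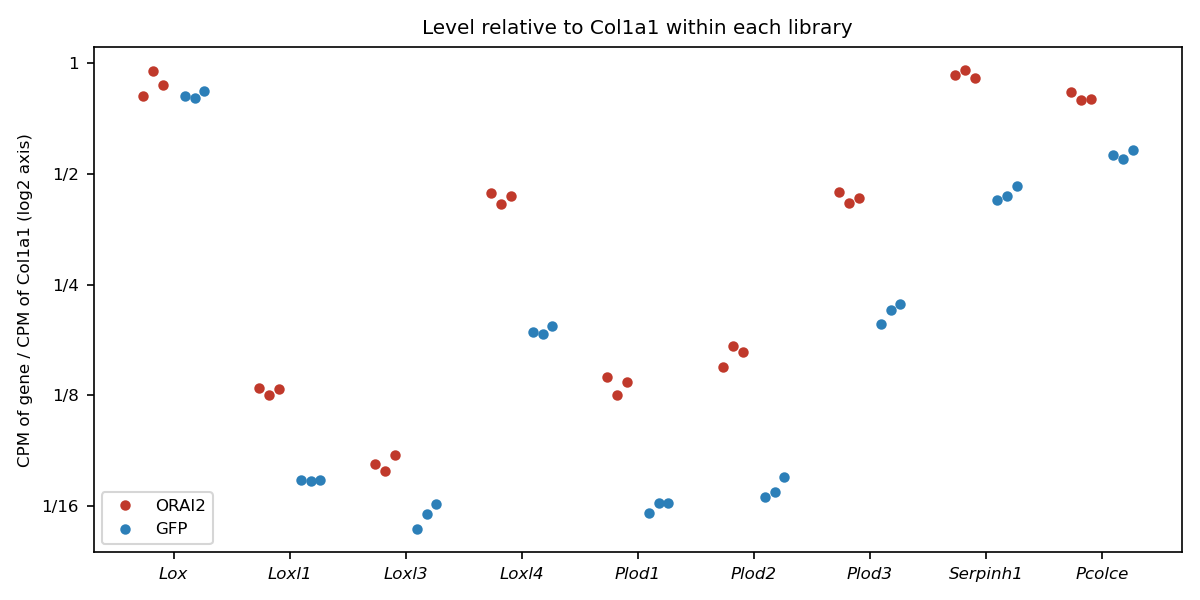
CPM of each gene divided by CPM of Col1a1 within the same library (vertical axis, log2 scale) for 9 genes, with ORAI2 libraries in red and GFP libraries in blue. Loxl2 is left out for its low counts. The colours overlap for Lox, near 0.8 to 0.95, and for the other 8 genes the ORAI2 points lie above the GFP points.

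Of 20 tested other enzymes and chaperones of procollagen in the endoplasmic reticulum, 12 were lower and 8 were not called, with a median log2 fold change of -0.13. The share called lower over all tested genes was 22.1%. The largest fold among the called ones was 2.09-fold lower for P4ha3, a further prolyl 4-hydroxylase subunit, which had only 12, 10 and 14 counts in ORAI2 libraries and 34, 31 and 11 counts in GFP libraries (adjusted p = 0.0441, edgeR). Without GFP replicate 1 or without ORAI2 replicate 3, 7 were called. P4ha1 and P4ha2, catalytic subunits of prolyl 4-hydroxylase, were 1.38-fold and 1.30-fold lower, at 126 ± 9.08 and 65.1 ± 2.29 CPM in ORAI2 libraries, against 173 ± 2.44 and 85.0 ± 0.495 CPM in GFP libraries. P4hb, the protein disulphide isomerase that is their partner subunit, averaged 671 ± 11.8 CPM in ORAI2 libraries and 846 ± 16.1 CPM in GFP libraries (adjusted p = 8.17e-06, edgeR). P3h4, a partner of Plod1 in the lysyl hydroxylation complex, was 1.27-fold lower, and the prolyl isomerase Fkbp9 1.11-fold lower. The general chaperone Hspa5 (BiP) was at 1671 ± 122 CPM in ORAI2 libraries and 1645 ± 32.7 CPM in GFP libraries (log2 fold change 0.02, adjusted p = 0.734).

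Of 10 procollagen export genes, 4 were lower, 1 was higher and 5 were not called, with a median log2 fold change of -0.02. This share of called genes is near the 42.9% over all tested genes. Creb3l1 (OASIS), a transcription factor of the endoplasmic reticulum membrane that drives type I collagen genes in osteoblasts, fell most. It was at 5.01, 5.55 and 5.41 CPM in ORAI2 libraries and 13.6, 14.9 and 13.9 CPM in GFP libraries (log2 fold change -1.41, SE 0.09, adjusted p = 2.04e-07, edgeR). The COPII coat genes Sec24d and Sec23a, whose vesicles carry procollagen, were 1.26-fold and 1.16-fold lower, and Tfg 1.13-fold lower. Mia2, an export receptor component, was 1.19-fold higher, whereas its partner Mia3 (TANGO1) was at 139 ± 2.74 CPM in ORAI2 libraries and 144 ± 8.62 CPM in GFP libraries (adjusted p = 0.387).

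Among procollagen proteinases, Bmp1, which removes the C-terminal end piece and also activates lysyl oxidase, averaged 94.8 ± 2.41 CPM in ORAI2 libraries and 104 ± 5.28 CPM in GFP libraries (log2 fold change -0.14, adjusted p = 0.0238, edgeR). DESeq2 did not call it (adjusted p = 0.0540), and nor did edgeR when GFP replicate 3, ORAI2 replicate 1 or ORAI2 replicate 2 was left out, where the highest adjusted p was 0.110. Adamts14, an N-proteinase, was scarce, with 90, 115 and 74 counts in ORAI2 libraries and 120, 143 and 116 counts in GFP libraries. Its call (adjusted p = 0.0364) likewise did not hold in DESeq2, nor in edgeR with any one of GFP replicates 1 and 2 and ORAI2 replicates 1 and 3 left out. Of 4 tested genes of this list, 2 were lower, Pcolce2 was higher and Adamts2 was not called. With DESeq2, or without ORAI2 replicate 1, 1 of them was called.

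Of 7 tested matrix partners that bind or place lysyl oxidases, 5 were lower, against 22.1% of all tested genes. The other 2 were not called, and the median log2 fold change of the 7 was -0.45. Fbn1, the main microfibril protein, was at 432 ± 13.3 CPM in ORAI2 libraries and 726 ± 41.8 CPM in GFP libraries (1.68-fold lower, adjusted p = 8.90e-08, edgeR). Efemp2 (fibulin-4), which binds lysyl oxidase and brings it to tropoelastin, and Fbln5 (fibulin-5), which binds Loxl1, were 1.36-fold and 1.51-fold lower. Thbs1 (thrombospondin-1) was 2.73-fold lower, at 311 ± 13.7 CPM in ORAI2 libraries and 849 ± 100 CPM in GFP libraries. Fn1 (fibronectin) was 1.12-fold lower, a call that ended without ORAI2 replicate 2 (adjusted p = 0.0607, edgeR). Postn, which promotes activation of lysyl oxidase, had at most 1 count per library. Of 7 genes of copper supply, 3 were lower, 1 was higher and 3 were not called, where 42.9% of all tested genes were called. Atp7a, the pump that loads copper onto secreted enzymes, was 1.28-fold lower at 43.8 ± 0.512 CPM in ORAI2 libraries and 56.2 ± 1.51 CPM in GFP libraries (adjusted p = 3.98e-05, edgeR), and the copper-binding metallothionein Mt1 was 1.19-fold higher. The copper chaperone Atox1 and the pump Atp7b were called at adjusted p-values of 0.0347 and 0.0407, neither of which held with GFP replicate 2 left out, nor with ORAI2 replicate 1 or 2 left out. The Atox1 call also ended without GFP replicate 1, and the Atp7b call without GFP replicate 3, with DESeq2 and with no low-count filter. The number of called copper genes was 2 without GFP replicate 2, ORAI2 replicate 1 or ORAI2 replicate 2.

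**Figure D5:**
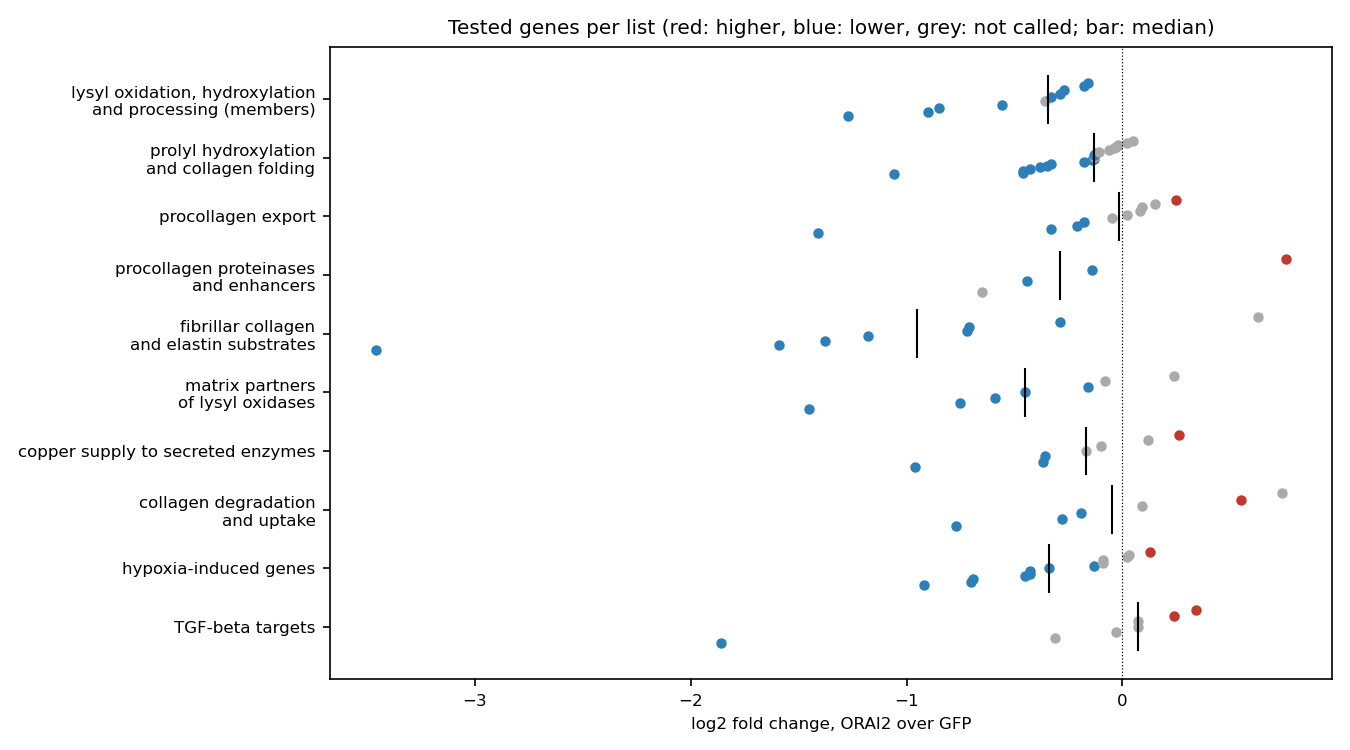
Log2 fold change, ORAI2 over GFP (horizontal axis), of every tested gene in the 10 genes described here and in 9 lists of related genes, one row per list. Blue points were called lower, red points higher and grey points were not called, and black bars are medians. The bar of the fibrillar collagens lies at -0.95, that of the 10 genes at -0.35 and that of the TGF-beta targets at 0.07.

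Genes of hypoxia and of TGF-beta signalling were listed because both are known to induce lysyl oxidases and hydroxylases. Of 13 tested hypoxia-induced genes, 8 were lower, 1 was higher and 4 were not called (median log2 fold change -0.34). Over all tested genes, 22.1% were called lower and 20.8% higher. The glycolytic genes Pgk1 and Ldha were 1.62-fold and 1.35-fold lower, and the oxygen sensor gene Egln3 1.37-fold lower. Bnip3, a mitophagy receptor, was 1.61-fold lower and Pdk1, a kinase that restrains pyruvate dehydrogenase, 1.35-fold lower (adjusted p = 1.95e-05 and 3.22e-05, edgeR). Of 7 tested TGF-beta targets, 1 was lower, 2 were higher and 4 were not called. This share of called genes is near the 42.9% over all tested genes. Tgfbi, a secreted matrix protein, was 3.63-fold lower at 9.26, 8.54 and 8.65 CPM in ORAI2 libraries and 37.4, 31.5 and 27.2 CPM in GFP libraries (adjusted p = 9.33e-08, edgeR). Ccn2, a matricellular protein, was 1.18-fold higher, and Smad7, an inhibitor of the pathway, 1.26-fold higher.

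Among the collagen-degrading enzymes and uptake receptors, 3 of 6 were lower, 1 was higher and 2 were not called. The shares over all tested genes were 22.1% lower and 20.8% higher. Mmp2, a gelatinase, fell most, to 172, 170 and 172 CPM in ORAI2 libraries, against 306, 294 and 277 CPM in GFP libraries (log2 fold change -0.77, adjusted p = 2.96e-08, edgeR), and the membrane-bound collagenase Mmp14 was 1.14-fold lower. Mrc2, the receptor that takes up collagen fragments, was 1.21-fold lower, at 139 ± 7.84 CPM in ORAI2 libraries and 168 ± 7.49 CPM in GFP libraries (adjusted p = 4.52e-04, edgeR). The gene called higher was Mmp13, at 908, 825 and 996 CPM in ORAI2 libraries and 727, 621 and 520 CPM in GFP libraries.

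In ORAI2 libraries the order of levels per kilobase ran from Pcolce (492 ± 8.87 CPM per kilobase) over Serpinh1 (213 ± 8.48), Plod3 (108 ± 3.43), Lox (92.9 ± 9.46) and Loxl4 (85.7 ± 3.54) to Plod1 (61.3 ± 3.51), with Plod2, Loxl1, Loxl3 and Loxl2 at 21.4, 18.9, 10.8 and 0.283. In GFP libraries Pcolce (890 ± 34.1) and Serpinh1 (261 ± 6.17) were followed by Lox (225 ± 7.86), Plod3 (136 ± 3.60), Loxl4 (96.7 ± 3.09) and Plod1 (74.1 ± 0.542). In the ORAI2 libraries Lox and Loxl4 were within their spread of each other. Plod3 thus stood above Lox in ORAI2 libraries and below it in GFP libraries. This exchange was lost with the longest transcript as the length, where Lox was at 90.2 in ORAI2 libraries and 218 in GFP libraries, and Plod3 at 63.8 in ORAI2 libraries and 80.4 in GFP libraries. With that length Loxl4 was at 56.0 in ORAI2 libraries and 63.3 in GFP libraries, and Plod1 at 20.0 in ORAI2 libraries and 24.2 in GFP libraries, so the places of these genes depend on the transcript assumed. Pcolce also moved by over 1.5-fold, to 242 in ORAI2 libraries and 438 in GFP libraries.

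The 5 genes whose pattern was nearest to that of Lox were sought among 10525 others with a mean of at least 5 CPM, by the Euclidean distance over the 6 libraries between log2 CPM values relative to the GFP mean. They were Tgfb3 (distance 0.121), Ifit3 (0.145), Lbp (0.147), Nos2 (0.177) and Ifit3b (0.182). Tgfb3, a TGF-beta ligand, stood at 9.64, 11.2 and 10.6 CPM in ORAI2 libraries and at 26.1, 26.4 and 24.5 CPM in GFP libraries. Lbp, which binds bacterial lipopolysaccharide, was at 7.27, 8.38 and 8.71 CPM in ORAI2 libraries and 21.8, 20.1 and 19.2 CPM in GFP libraries. Ifit3 and Ifit3b are near-identical copies, so their separate values are uncertain.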

How the data were processed

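Libraries were made from TRIzol-extracted, oligo(dT)-selected, fragmented RNA with random-hexamer cDNA, per the labels' protocols. The submitters' processing notes name HISAT2 2.0.4, Salmon 1.4.0 and build GRCm39, without their roles. Per the file headers, the authors deposited counts, as whole numbers, and TPM values for each gene and library. No source used here says whether those counts were read tallies or rounded estimates. The TPM columns the authors deposited rank genes unlike their namesake counts and entered no test.

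Entrez numbers were matched to symbols in a RefSeq gene table of GRCm38.p6 (25631 of 26532). edgeR 4.0.16 (R 4.3.3) was run on all 6 libraries with TMM scaling, the filterByExpr filter (minimum count 10) and group as the only term. Standard errors were derived from the F statistic. CPM values are TMM-scaled. Counting error alone is small at this depth for all of the 10 genes except Loxl2. Within a group, pairs of libraries differed by a chi-square per gene of 2.54 to 4.5, so none was a copy of another. Transcript lengths and exon overlaps came from GENCODE M21 (GRCm38), by symbol. DESeq2 1.42.0, limma-voom (limma 3.58.1), other scalings and filters, a replicate block and each library left out in turn were alternatives. The fits were tested on simulated data.

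The genes and lists were chosen with earlier results of these data known. Genes were named by rule: the 10 genes, Orai2, up to 5 called members with the smallest p from each list, and the 5 genes nearest to Lox. Other list members given as values, among them markers, were chosen after their values were seen.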

Additional observations from a re-analysis of the deposited data

How the results depend on the processing

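Of the 10 genes, 8 kept both their direction and their call under all 14 alternatives. Loxl2 was not called under any of the 13 that tested it (log2 fold change -0.62 to -0.03), the 5 CPM filter having removed it. The log2 fold change ranged from -1.33 to -1.19 for Lox, -0.96 to -0.86 for Loxl3, -0.88 to -0.83 for Pcolce and -0.20 to -0.14 for Loxl4. Plod2 lost its call under 8 alternatives, including library size only (adjusted p = 0.0554) and DESeq2 (adjusted p = 0.0558). The number of the 10 genes called was therefore 8 or 9. Of 629 values for 45 other named genes, 609 kept their call, 20 lost it and none reversed. Over all genes, 4825 (DESeq2) to 6246 were called, against 5909. The last of these came from the replicate block. Deviations of same-numbered libraries from their group means correlated at 0.136, 0.073 and 0.126 for numbers 1, 2 and 3. Every library correlated best with its own number. The titles do not say that the numbers mark a shared batch, so the block was kept as an alternative only. The block kept the calls of the 9 genes.

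The called genes of the prolyl hydroxylation and collagen folding list numbered 7 to 12 when a library was left out, those of the procollagen proteinases 1 to 2, and 1 with DESeq2, and those of copper supply 2 to 4. With the longest transcript, levels in CPM per kilobase were 9.68 for Loxl3, 56.0 for Loxl4, 20.0 for Plod1, 63.8 for Plod3, 200 for Serpinh1 and 242 for Pcolce in ORAI2 libraries. In GFP libraries they were 18.1 for Loxl3, 63.3 for Loxl4, 24.2 for Plod1, 80.4 for Plod3, 244 for Serpinh1 and 438 for Pcolce. The planned fit to TPM values was not run, because the columns could not be tied to the libraries. Among the 10 genes, Loxl2 had the fewest counts and the widest interval.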

Other observations

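The deposited TPM columns ranked genes more like the counts of another library than like those of their own name. The column named ORAI2-1 was closest to the counts of ORAI2 replicate 2 (Spearman rho 0.959 across genes, against 0.911 for its own name), ORAI2-2 to ORAI2 replicate 3, GFP-1 to GFP replicate 2 and GFP-2 to GFP replicate 3. The columns named ORAI2-3 and GFP-3 were close to none (highest rho 0.904 and 0.901), and ORAI2-3 listed Orai2 at 36.33 TPM, against 38.19 TPM in GFP-3. In these columns Lox was listed at 190.09, 181.72 and 233.0 TPM under ORAI2 names and 416.21, 429.29 and 676.31 TPM under GFP names, and Pcolce at 550.23, 571.95 and 771.43 TPM under ORAI2 names and 986.16, 1031.49 and 1359.28 TPM under GFP names. The cause of the mismatch was not tested.

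Col1a2, which encodes the second chain of type I collagen, was scarce beside Col1a1 in both groups. The ratio of Col1a2 to Col1a1 CPM was 0.00912, 0.0104 and 0.00828 in ORAI2 libraries and 0.00915, 0.0119 and 0.0113 in GFP libraries, which overlapped. The ratio of Col3a1 to Col1a1 was 0.00820, 0.0106 and 0.0112 in ORAI2 libraries, against 0.0397, 0.0449 and 0.0433 in GFP libraries.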
